A study of Mus musculus with 4 samples.

Results

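The collagen genes of mouse oocytes, 43 of the 25587 genes with a listed value, were followed through oocyte growth. They were taken by name, as every gene whose symbol is Col, a number, the letter a and a number, and the family was singled out for description with the values of these same libraries known, so all values below describe the libraries and none is a test. By class, 11 genes encode fibrillar chains, 6 encode the basement membrane chains of type IV, and 26 encode other chains: 9 chains of fibril-associated collagens (FACITs), 6 beaded filament chains of type VI, 3 network-forming chains of types VIII and X, 4 transmembrane chains, 2 multiplexins, and types VII and XXVIII. RNA-Seq was performed after depletion of ribosomal RNA on oocytes pooled from wild-type C57BL/6 (C57BL/6Babr) mice, and no treatment is labelled for any group. Non-growing oocytes (NGOs) came from mice aged 5 days post-partum (dpp), growing oocytes from mice aged 8 to 14 dpp (GO1) or 15 dpp (GO2), and fully grown oocytes (FGOs) from mice aged 20 dpp. Each stage had 1 library of pooled cells, and GO1 pooled animals over a range of ages. Since NGOs and FGOs went through the dUTP protocol, and GO1 and GO2 through the ScriptSeq kit, stage and protocol cannot be told apart between these pairs. NGOs were therefore compared with FGOs, and GO1 with GO2, and values are given in that order.

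Collagens are extracellular proteins whose chains wind into a helix rich in glycine and proline, and each type is made of its own set of chains. Fibrillar collagens form the fibrils of connective tissue, type IV collagen forms the sheet of basement membranes, and the remaining classes decorate fibrils, build fine filaments or sit in cell membranes. In the ovary, fibrillar collagens are known as products of stromal and thecal cells, and type IV collagen lies in the basal lamina around each follicle, while the oocyte itself is surrounded by the zona pellucida, which is not made of collagen.

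Values are RPKM, read numbers divided by exon length and library size, which correct for gene length and so allow levels of different genes to be set side by side. Counts were recovered from them and numbered 64009152 over all genes in NGOs and 73366535 in FGOs, with 75782148 in GO1 and 141045556 in GO2. Intervals are exact 95 % Poisson intervals on these counts and cover counting error only: 10 counts allow 4.80 to 18.4, 100 counts allow 81.4 to 122, and 1000 counts allow 939 to 1064. A read pair can give several counts, so the intervals are narrower than the true error, and with 1 library for each stage the spread between replicates is unknown. All 12 oocyte markers examined were above 1 RPKM in every library, and their summed level was 8036 RPKM in NGOs and 5389 in FGOs, with 5929 in GO1 and 5553 in GO2.

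Collagen RNA in these oocytes was dominated by type VI chains, fibrillar RNA was present mainly in the NGO library, and type IV RNA was present at every stage and highest in FGOs. With detection set at 3 counts, 39 of the 43 genes were detected in NGOs, 37 in FGOs, 35 in GO1 and 38 in GO2. Over all listed genes the detected share was 64.7 %, 65.3 %, 66.0 % and 70.7 %, respectively. Most of these collagen genes lay at very low levels: 9 were above 1 RPKM in NGOs, 11 in FGOs, 8 in GO1 and 9 in GO2, where 38.4 %, 38.5 %, 36.6 % and 37.4 % of all genes were. At least 3 counts were seen for 34 genes in all libraries and for 41 in at least 1. Of the remaining pair, Col2a1, the chain of cartilage fibrils, was listed at 0 in all libraries, where 3 counts would have been 0.00293 RPKM in NGOs and 0.00271 RPKM in FGOs, and Col5a3 had 1 count, in NGOs. The family reached at least 1 RPKM in some library for 13 genes and in all libraries for 7.

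**Figure D1:**
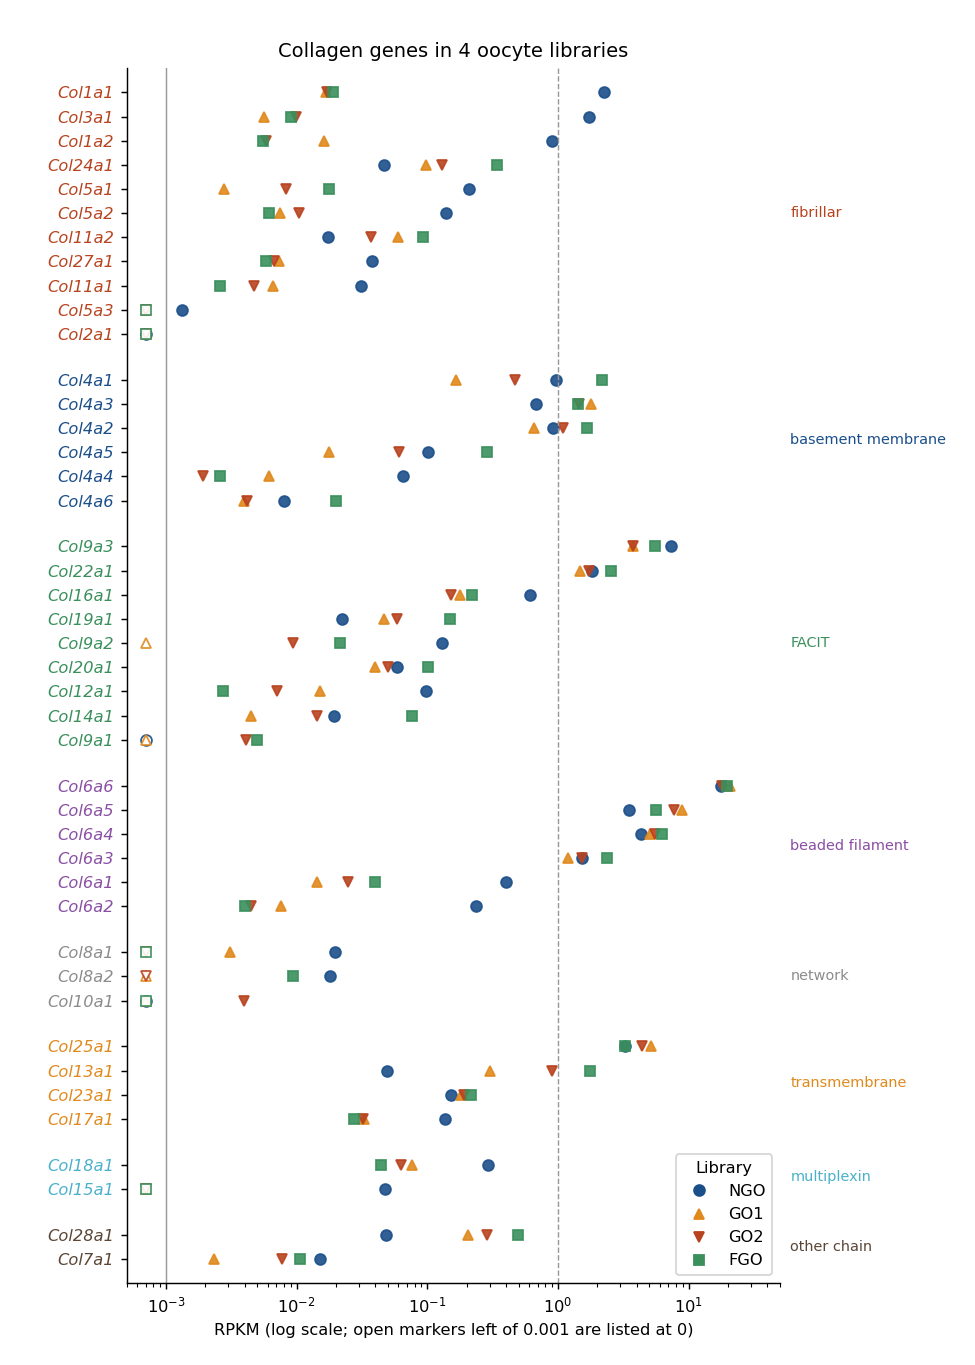
Level of each of the 43 collagen genes (rows, grouped and coloured by class) in the 4 oocyte libraries (markers), as RPKM on a log axis. Open markers left of 0.001 are genes listed at 0, and the dashed line marks 1 RPKM. Col6a6 lay between 17.7 and 20.8 RPKM, above every other collagen gene in each library, and the NGO markers of Col1a1, Col1a2 and Col3a1 stand apart from those of the other libraries.

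The sum of RPKM over all collagen genes varied little, at 49.8 RPKM in NGOs and 54.4 in FGOs, with 50.2 in GO1 and 47.7 in GO2. Its make-up differed by class. Fibrillar chains summed to 5.35 RPKM in NGOs and 0.498 in FGOs, with 0.220 in GO1 and 0.229 in GO2. In NGOs this was 10.7 % of the collagen total, against 0.915 % in FGOs, 0.438 % in GO1 and 0.480 % in GO2. Type IV chains summed to 2.74 RPKM in NGOs and 5.56 in FGOs, with 2.63 in GO1 and 3.07 in GO2, and their share was 5.50 % in NGOs, 10.2 % in FGOs, 5.24 % in GO1 and 6.44 % in GO2. The 26 other chains held the rest, between 83.8 % in NGOs and 94.3 % in GO1. Most of this was type VI collagen, whose 6 chains summed to 27.6 RPKM in NGOs and 33.8 in FGOs, with 36.0 in GO1 and 32.8 in GO2. The NGO library thus held over 10 times the fibrillar level of any other library, and the FGO library the highest type IV level.

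**Figure D2:**
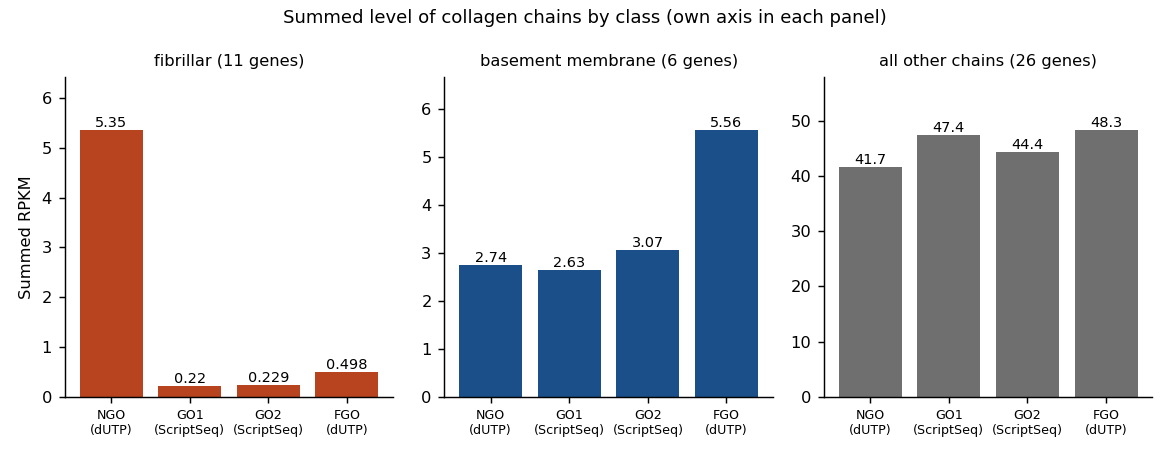
Summed RPKM of the 11 fibrillar, 6 basement membrane and 26 other collagen genes in each oocyte library (bars, each panel with its own axis from 0, protocol under each name). Fibrillar chains stood at 5.35 RPKM in NGOs and at most 0.498 elsewhere, type IV chains reached 5.56 in FGOs, and the other chains stayed between 41.7 and 48.3.

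Type I and type III collagen, the fibrils of skin, bone and stroma, were nearly confined to NGOs among these libraries. Col3a1 (chr1:45311538-45349706 in GRCm38, as all coordinates here), the only chain of type III, lay at 1.73 RPKM in NGOs (interval 1.65 to 1.82) and 0.00898 in FGOs (interval 0.00411 to 0.0170), beside 0.00565 in GO1 and 0.00989 in GO2, from 1607, 9, 6 and 20 counts. Col1a1 (chr11:94936224-94953042), the main chain of type I, lay at 2.24 RPKM in NGOs (interval 2.14 to 2.35) and 0.0191 in FGOs (interval 0.0107 to 0.0315), beside 0.0168 in GO1 and 0.0170 in GO2, from 1628, 15, 14 and 27 counts. Its partner Col1a2 was at 0.896 RPKM in NGOs (interval 0.846 to 0.948) and 0.00551 in FGOs (interval 0.00238 to 0.0109), beside 0.0162 in GO1 and 0.00580 in GO2, from 1202, 8, 25 and 17 counts. For each of these genes the NGO interval lay far above those of all other libraries, and GO1, GO2 and FGOs were all below 0.02 RPKM. Scaled for library size, the NGO level exceeded the FGO level 186-fold (interval 97.8 to 408) for Col3a1, 157-fold (interval 79.3 to 364) for Col1a2 and 113-fold (interval 68.4 to 203) for Col1a1. From GO1 to GO2 Col1a2 was lower in GO2 by a log2 difference of -1.45, while Col1a1 differed by -0.01 and Col3a1 by 0.71, each from fewer than 50 counts. In NGOs the ratio of Col1a1 to Col1a2 was 2.50 (interval 2.32 to 2.70) in RPKM.

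The promoter windows of 2 of these genes are shown because theirs were the largest falls for which RefSeq (GRCm38.p6) gave a window, running from 250 bases before to 50 bases after the RefSeq start. Col3a1 (chr1:45311288-45311587, plus strand) has 37.7 % G and C and no CpG, and Col1a2 (chr6:4505368-4505667, plus strand) has 61 % and 13 CpGs. The Col1a2 window belongs to a start 804 bases from the one listed for the gene. For this and every other window, use of the RefSeq start in these oocytes was not tested. Capitals here and in the windows printed later mark the TATA box (TATAAA), the CCAAT box (CCAAT) and the GC box (GGGCGG), each searched on both strands, so that the reverse complement of each counts as well.
Col3a1: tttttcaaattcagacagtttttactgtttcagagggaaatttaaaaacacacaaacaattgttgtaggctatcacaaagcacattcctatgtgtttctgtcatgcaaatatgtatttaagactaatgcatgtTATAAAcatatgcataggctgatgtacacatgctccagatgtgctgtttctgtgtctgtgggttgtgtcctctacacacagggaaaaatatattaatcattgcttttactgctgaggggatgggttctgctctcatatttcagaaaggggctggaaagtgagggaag
Col1a2: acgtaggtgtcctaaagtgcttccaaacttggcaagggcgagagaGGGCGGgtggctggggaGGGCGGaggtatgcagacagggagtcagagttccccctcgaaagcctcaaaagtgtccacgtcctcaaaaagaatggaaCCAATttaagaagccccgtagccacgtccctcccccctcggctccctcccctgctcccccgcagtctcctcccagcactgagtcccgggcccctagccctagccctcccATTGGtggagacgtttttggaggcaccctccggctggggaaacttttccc
The Col3a1 window holds 1 TATA box and no other match, and the Col1a2 window holds 2 CCAAT boxes and 2 GC boxes.

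Among the minor fibrillar chains, those that copolymerise with type I were also at their highest in NGOs. Col5a1, a chain of type V collagen, which is known to start type I fibrils, reached 0.207 RPKM in NGOs and 0.0177 in FGOs (0.00279 in GO1 and 0.00830 in GO2). Its partner Col5a2 reached 0.140 RPKM in NGOs and 0.00610 in FGOs (0.00740 in GO1 and 0.0104 in GO2). Both had at most 24 counts in each library of growing oocytes, and NGOs exceeded FGOs 11.2-fold (interval 6.93 to 19.4) for Col5a1 and 22.0-fold (interval 10.4 to 55.8) for Col5a2. Col11a1, a type XI chain known from cartilage, and Col27a1, also of cartilage, were lower still, at 0.0309 and 0.0375 RPKM in NGOs, and were 11.5-fold and 6.26-fold lower in FGOs. Fibrillar chains did not all go this way. Col24a1, a fibrillar chain known from developing bone and cornea, was at 0.0463 RPKM in NGOs and 0.340 in FGOs (0.0973 in GO1 and 0.129 in GO2). It was 7.62-fold (interval 5.45 to 10.9) higher in FGOs than in NGOs, and was the highest fibrillar chain in every library but the NGO one. Col11a2, the other type XI chain, was at 0.0172 RPKM in NGOs and 0.0918 in FGOs (0.0600 in GO1 and 0.0370 in GO2), 5.53-fold higher in FGOs. Of the 11 fibrillar genes, 7 were at least 4-fold lower and 2 at least 4-fold higher in FGOs than in NGOs, and Col2a1 and Col5a3 had too few counts to be compared. Over all 15253 genes compared, 5.51 % were at least 4-fold lower and 8.57 % at least 4-fold higher.

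Markers of other cell types moved with the NGO-high collagens in part. The 12 stromal fibroblast and theca markers examined summed to 3.01 RPKM in NGOs and 0.930 in FGOs, with 0.441 in GO1 and 0.668 in GO2, and 8 of them were detected in NGOs and 8 in FGOs. Among them Fbln1, a matrix glycoprotein, lay at 2.04 RPKM in NGOs and 0.161 in FGOs, and Dcn (decorin) at 0.382 and 0.0602. By contrast, Pdgfra lay at 0.189 and 0.151 RPKM, Thy1 was at 0 in all libraries, Lum had 1 count, in NGOs, and Cyp11a1 was higher in FGOs (0.00509 and 0.311). The 7 blood and immune markers summed to 1.98 RPKM in NGOs and 0.364 in FGOs, with 0.553 in GO1 and 0.648 in GO2. Of these, Hba-a1, an alpha globin, had 81 counts in NGOs and 0 in FGOs, Lyz2 19 and 0, and Hbb-b1 2 and 0. Cd68 lay at 0.626 and 0.326 RPKM, Ptprc had 12 and 11 counts, Csf1r 20 and 13, and Cd3e was at 0 throughout. The 6 smooth muscle and pericyte markers summed to 7.24 RPKM in NGOs and 17.9 in FGOs, with 13.7 in GO1 and 18.1 in GO2. Myh11 (5.53 RPKM in NGOs and 13.3 in FGOs) and Cnn1 (1.26 and 4.60) held most of these sums. The rest of the list was lower in FGOs: Acta2 had 53 counts in NGOs and 0 in FGOs, Tagln 26 and 0, Des 13 and 1, and Rgs5 3 and 0. Of the remaining lists, whose sums were higher in FGOs than in NGOs, the 10 granulosa markers summed to 6.37 RPKM in NGOs and 19.6 in FGOs, with 12.1 in GO1 and 16.5 in GO2. Nr5a2, at 3.62 RPKM in NGOs and 8.65 in FGOs, and Cyp19a1, at 0.518 and 6.08, held most of these sums. Inha, Kitl and Hsd17b1 were also higher in FGOs, with 104, 328 and 20 counts in NGOs and 272, 1127 and 105 in FGOs. So were Amh, with 46 and 82 counts, and Fshr, with 31 and 75. Foxl2 and Amhr2 were lower in FGOs, with 21 and 88 counts in NGOs and 8 and 54 in FGOs, and Inhba had 19 and 20. The 8 endothelial markers summed to 3.74 RPKM in NGOs and 14.2 in FGOs, with 7.42 in GO1 and 11.5 in GO2. Pecam1 was the highest of them, at 1.74 RPKM in NGOs and 9.70 in FGOs. Tek (1.56 and 2.62), Tie1 (0.204 and 1.59) and Kdr (0.0286 and 0.108) were also higher in FGOs, and Cldn5 lay at 0.160 and 0.171. By contrast, Cdh5 had 18 counts in NGOs and 0 in FGOs, Esam had 2 and 0, and Emcn was at 0 throughout. The 7 surface epithelium markers went from 3.40 to 7.05 RPKM, through Lrrn4 (1.45 and 5.06) and Upk3b (0.239 and 0.991). The other 5 were lower in FGOs: Krt8 was at 1.53 and 0.986 RPKM, Krt18 had 15 counts in NGOs and 1 in FGOs, Krt19 11 and 0, Msln 5 and 0, and Krt7 9 and 7. The part of such cells in the collagen values was not tested. In pooled cells, fewer cells of a type and less RNA per cell cannot be told apart.

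Type IV collagen, the sheet of basement membranes, was present in all libraries, with its most abundant chains near or above 1 RPKM. Col4a1, a chain found in nearly all basement membranes, was at 0.971 RPKM in NGOs and 2.16 in FGOs (0.165 in GO1 and 0.466 in GO2). Col4a2, which joins it in the same trimer, was at 0.913 RPKM in NGOs and 1.66 in FGOs (0.659 in GO1 and 1.10 in GO2). Col4a3, a chain of the type IV network known from kidney glomerulus, was at 0.682 RPKM in NGOs and 1.42 in FGOs (1.78 in GO1 and 1.44 in GO2). Col4a1 was thus low in GO1 and highest in FGOs, while Col4a3 was highest in GO1 and lowest in NGOs. FGOs exceeded NGOs 2.31-fold (interval 2.12 to 2.52) for Col4a1, 1.89-fold (interval 1.72 to 2.08) for Col4a2 and 2.17-fold (interval 1.99 to 2.36) for Col4a3, all short of 4-fold. Col4a5, which assembles with Col4a3 and Col4a4, was at 0.101 RPKM in NGOs and 0.285 in FGOs (0.0176 in GO1 and 0.0604 in GO2). It was 2.93-fold (interval 2.25 to 3.85) higher in FGOs than in NGOs and 3.35-fold (interval 1.94 to 6.22) higher in GO2 than in GO1. Col4a6 had no more than 19 counts in any library and stayed at or below 0.0199 RPKM. Col4a4 went the opposite way from the other type IV chains, at 0.0656 RPKM in NGOs (interval 0.0482 to 0.0873) and 0.00258 in FGOs (interval 0.000313 to 0.00932), beside 0.00609 in GO1 and 0.00192 in GO2, from 47, 2, 5 and 3 counts. It was 24.5-fold (interval 6.42 to 208) lower in FGOs and was the only type IV gene past 4-fold from NGOs to FGOs.

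Chains that assemble into 1 molecule were mostly not at equal RNA levels. The ratio of Col4a1 to Col4a2 in RPKM was 1.06 in NGOs and 1.30 in FGOs, with 0.251 in GO1 and 0.424 in GO2. Its NGO interval (0.957 to 1.18) included equal levels. Col4a3 exceeded Col4a4 by a ratio of 10.4 in NGOs and 552 in FGOs, with 293 in GO1 and 749.9 in GO2, the FGO value resting on 2 counts of Col4a4 (interval 152 to 4559). Against Col4a5 the Col4a3 ratio was 6.76 in NGOs and 5.00 in FGOs, with 101 in GO1 and 23.8 in GO2. In every library the RPKM of Col4a3 thus stood well above those of both chains with which it is known to assemble in the kidney. However, 5.49 % of the short exon stretches of Col4a3 also occur in another gene, against 0.0796 % for Col4a4 and 0 % for Col4a5. How far the Col4a3 value is shared was not tested.

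Type IV genes lie in pairs that start next to each other on opposite strands. Col4a1 and Col4a2 overlap by 22 bases at their starts on chromosome 8, Col4a4 and Col4a3 are 71 bases apart on chromosome 1, and Col4a6 and Col4a5 are 1308 bases apart on the X chromosome. The windows of Col4a1 (chr8:11312777-11313076, minus strand) and Col4a2 (chr8:11312555-11312854, plus strand) are shown because they share 78 bases of the same DNA, read in opposite directions, although the genes had different levels in GO1 and GO2.
Col4a1: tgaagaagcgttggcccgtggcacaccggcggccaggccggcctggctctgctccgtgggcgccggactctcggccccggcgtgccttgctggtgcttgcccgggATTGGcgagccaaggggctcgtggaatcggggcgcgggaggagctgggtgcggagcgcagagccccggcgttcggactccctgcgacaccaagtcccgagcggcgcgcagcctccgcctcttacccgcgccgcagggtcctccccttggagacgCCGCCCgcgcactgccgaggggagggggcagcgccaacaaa
Col4a2: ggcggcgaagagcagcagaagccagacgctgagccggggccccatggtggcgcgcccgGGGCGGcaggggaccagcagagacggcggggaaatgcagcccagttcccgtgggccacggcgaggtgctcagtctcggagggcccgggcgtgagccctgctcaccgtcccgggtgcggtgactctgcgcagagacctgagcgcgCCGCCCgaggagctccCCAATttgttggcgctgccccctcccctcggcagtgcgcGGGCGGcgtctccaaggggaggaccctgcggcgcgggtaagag
Both windows are rich in CpG (37 and 33 CpGs) and hold no TATA box. The Col4a1 window holds 1 CCAAT box and 1 GC box, and the Col4a2 window 1 CCAAT box and 3 GC boxes. In the pair on chromosome 1, Col4a4 and Col4a3 differed in opposite directions between NGOs and FGOs.

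**Figure D3:**
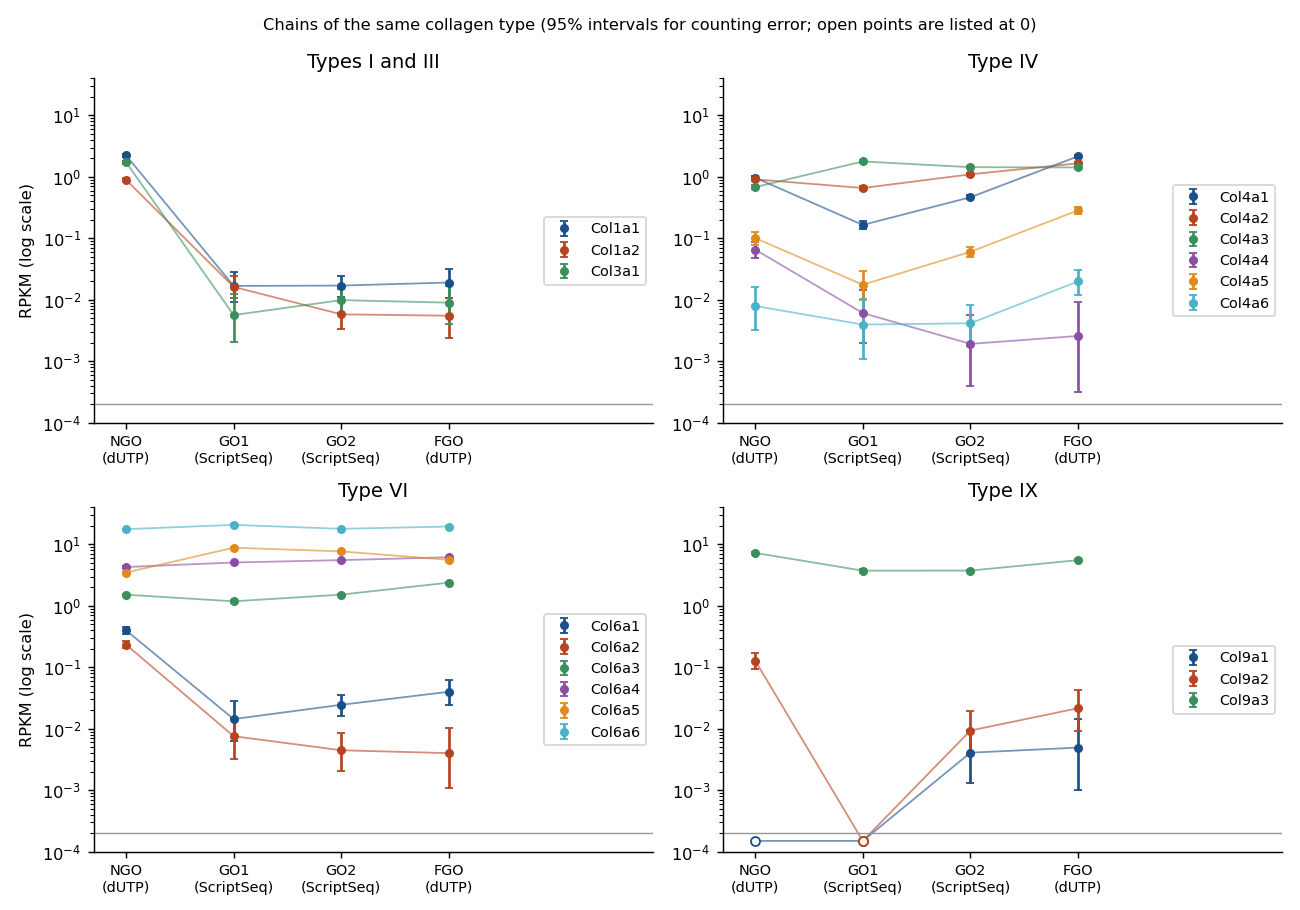
RPKM on a log axis of the chains of types I and III, IV, VI and IX in the NGO, GO1, GO2 and FGO libraries (points, bars for the 95 % counting interval, lines only join the points of a gene). Open points below the grey line are listed at 0. The chains of 1 type are spread over orders of magnitude: Col6a6 stands at 19.6 RPKM in FGOs and Col6a2 at 0.00402, Col9a3 at 5.55 and Col9a2 at 0.0216.

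Type VI collagen, which forms beaded filaments around cells, held the most abundant collagen RNA at every stage, but not through its classical chains. Col6a6 (chr9:105689417-105828085) was at 17.7 RPKM in NGOs and 19.6 in FGOs (20.8 in GO1 and 18.0 in GO2). Col6a5 was at 3.48 RPKM in NGOs and 5.61 in FGOs (8.85 in GO1 and 7.70 in GO2), and Col6a4 at 4.29 RPKM in NGOs and 6.19 in FGOs (5.09 in GO1 and 5.55 in GO2). Each of these values rests on at least 3101 counts. The chains they encode can take the place of the alpha3 chain in the trimer, and together they made up 51.1 % of collagen RPKM in NGOs, 57.7 % in FGOs, 69.2 % in GO1 and 65.4 % in GO2. Col6a3, the alpha3 chain itself, was at 1.52 RPKM in NGOs and 2.39 in FGOs (1.19 in GO1 and 1.53 in GO2). None of these genes differed 4-fold between the compared stages, and Col6a6 was 1.15-fold (interval 1.12 to 1.17) higher in FGOs than in NGOs. Col6a5 was 1.67-fold (interval 1.60 to 1.75) higher in FGOs, with its highest value in GO1. The chains with which each of them is known to assemble were much lower. Col6a1 lay at 0.400 RPKM in NGOs (interval 0.346 to 0.461) and 0.0401 in FGOs (interval 0.0248 to 0.0613), beside 0.0144 in GO1 and 0.0246 in GO2, from 194, 21, 8 and 26 counts. Col6a2 lay at 0.235 RPKM in NGOs (interval 0.204 to 0.268) and 0.00402 in FGOs (interval 0.00109 to 0.0103), beside 0.00758 in GO1 and 0.00448 in GO2, from 216, 4, 8 and 9 counts. NGOs exceeded FGOs 9.63-fold (interval 6.13 to 15.9) for Col6a1 and 56.3-fold (interval 21.7 to 209) for Col6a2, the direction seen for types I and III and not for the rest of type VI. The ratio of Col6a6 to Col6a1 was 44.2 in NGOs and 488 in FGOs, with 1445 in GO1 and 730.0 in GO2.

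Col6a6, Col6a5 and Col6a4 lie next to each other on chromosome 9 in the same orientation, with gaps of 30582 and 28810 bases and no other listed gene between them, while Col6a2 and Col6a1 are neighbours on chromosome 10. Their sequences are related, so reads could be shared: of the 50-base stretches of their exons, Col6a5 and Col6a6 had 322 in common, out of 9240 and 8732, and Col6a4 had 135 in common with other genes, none of them collagen genes. The promoter window of Col6a6 (chr9:105828036-105828335, minus strand), the most abundant collagen gene in each library, has 65 % G and C and 14 CpGs and holds 2 GC boxes.
Col6a6: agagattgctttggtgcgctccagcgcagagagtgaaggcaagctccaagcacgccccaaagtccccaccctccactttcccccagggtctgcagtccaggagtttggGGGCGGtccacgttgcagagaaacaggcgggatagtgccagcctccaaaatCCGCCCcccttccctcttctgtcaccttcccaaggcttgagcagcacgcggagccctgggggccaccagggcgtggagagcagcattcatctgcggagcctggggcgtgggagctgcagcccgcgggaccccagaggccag
The windows of its neighbours hold 1 GC box (Col6a5) and 1 CCAAT box and 2 GC boxes (Col6a4), and none of the 3 windows holds a TATA box.

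Most FACIT RNA came from 2 genes. FACITs attach to the surface of fibrils. Col9a3, a chain of type IX collagen of cartilage, was at 7.28 RPKM in NGOs and 5.55 in FGOs (3.75 in GO1 and 3.75 in GO2). Col22a1, known from the junctions of muscle and tendon, was at 1.82 RPKM in NGOs and 2.54 in FGOs (1.48 in GO1 and 1.72 in GO2). Neither differed 4-fold between compared stages: Col9a3 was 1.26-fold (interval 1.20 to 1.33) higher in NGOs than in FGOs and Col22a1 1.44-fold (interval 1.36 to 1.53) higher in FGOs. The partners of Col9a3 had few counts. Col9a1 had 0 counts in NGOs and GO1, 3 in FGOs and 5 in GO2, and Col9a2 had 44 in NGOs, 8 in FGOs, 0 in GO1 and 7 in GO2. The ratio of Col9a3 to Col9a2 was therefore 56.6 in NGOs and 257 in FGOs, with at least 490.0 in GO1 and 401 in GO2, the GO1 bound being set against 3 counts. The span of Col9a3 overlaps that of Tcfl5, on the other strand, by 234 bases, and Tcfl5 lay at 2.42 RPKM in NGOs and 1.22 in FGOs, with 1.98 in GO1 and 1.67 in GO2. Moreover, 6.17 % of the 50-base stretches of Col9a3 occur in other genes, and how far its value is shared was not tested.

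The other FACITs were below 1 RPKM and went both ways. Col12a1, which decorates type I fibrils in tendon, was at 0.0967 RPKM in NGOs and 0.00274 in FGOs (0.0150 in GO1 and 0.00707 in GO2), 34.0-fold (interval 14.3 to 106) higher in NGOs than in FGOs, and Col9a2 was 5.74-fold higher in NGOs. Col16a1 was at 0.615 RPKM in NGOs and 0.219 in FGOs (0.179 in GO1 and 0.151 in GO2), 2.70-fold higher in NGOs than in FGOs and so within 4-fold. Col19a1, known from muscle and synapses, was 6.88-fold (interval 4.13 to 12.2) higher in FGOs, at 0.148 against 0.0223 RPKM. Col14a1, found on fibrils of type I like Col12a1, differed in the opposite direction, at 0.0193 RPKM in NGOs and 0.0763 in FGOs (0.00450 in GO1 and 0.0142 in GO2), with 4.09-fold (interval 2.31 to 7.73) more in FGOs. It was not among the genes called at 4-fold, since the prior count of 1 used for calls brought its log2 difference to 1.96, and with a prior count of 0.25, at 2.02, it would be. Col20a1 stayed at or below 17 counts in every library.

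Transmembrane collagens, whose chains span the cell membrane and can be shed, included the largest rise of the family. Col13a1, known from the neuromuscular junction, lay at 0.0491 RPKM in NGOs (interval 0.0318 to 0.0725) and 1.77 in FGOs (interval 1.66 to 1.88), beside 0.303 in GO1 and 0.893 in GO2, from 25, 975, 177 and 993 counts. Each stage was above the one before it, but from NGOs to GO1 and from GO2 to FGOs stage and protocol cannot be told apart. Col13a1 was 37.4-fold (interval 25.2 to 58.1) higher in FGOs than in NGOs and 2.88-fold (interval 2.45 to 3.40) higher in GO2 than in GO1. Col25a1, a collagen of neurons, was the most abundant transmembrane chain at 3.27 RPKM in NGOs and 3.27 in FGOs (5.11 in GO1 and 4.41 in GO2), the levels of NGOs and FGOs being equal to the digits shown. Col23a1 lay between 0.151 and 0.214 RPKM, and Col17a1, a component of the hemidesmosomes of epithelia, fell 4.78-fold, from 0.136 RPKM in NGOs to 0.0275 in FGOs. The promoter window of Col13a1 (chr10:61979059-61979358, minus strand), shown for the largest rise, has 68 % G and C and 29 CpGs and holds 1 TATA box and no CCAAT or GC box.
Col13a1: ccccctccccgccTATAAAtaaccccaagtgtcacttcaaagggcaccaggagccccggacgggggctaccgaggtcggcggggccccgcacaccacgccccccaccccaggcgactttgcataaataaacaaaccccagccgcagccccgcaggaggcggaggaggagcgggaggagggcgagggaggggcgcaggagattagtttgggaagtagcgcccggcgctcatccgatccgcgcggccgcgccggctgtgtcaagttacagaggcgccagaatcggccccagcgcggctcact
The TATA box starts 237 bases before the RefSeq start, and a match of letters does not show that a factor binds there.

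The smallest classes were low throughout. Col18a1, a multiplexin of basement membranes whose end is released as endostatin, was at 0.294 RPKM in NGOs and 0.0441 in FGOs (0.0764 in GO1 and 0.0631 in GO2), 6.43-fold (interval 4.53 to 9.36) higher in NGOs than in FGOs. Its span overlaps Slc19a1 on the other strand by 8825 bases. Slc19a1 lay at 2.29 RPKM in NGOs and 1.81 in FGOs, and its part in the Col18a1 value was not tested. Col15a1, the other multiplexin, had 33 counts in NGOs and 0 in the other libraries, at least 11.5-fold lower in FGOs when FGOs are set at 3 counts. Col28a1, known from peripheral nerves, was at 0.0480 RPKM in NGOs and 0.497 in FGOs (0.205 in GO1 and 0.286 in GO2), 10.7-fold (interval 7.18 to 16.7) higher in FGOs than in NGOs, and Col7a1, of the anchoring fibrils of skin, had at most 19 counts. The network chains Col8a1, Col8a2 and Col10a1 had at most 11, 9 and 3 counts in a library and were not compared.

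Over the whole family, 37 of the 43 genes had at least 20 counts in NGOs and FGOs together. Of these, 15 were at least 4-fold lower in FGOs, 5 were at least 4-fold higher and 17 were called neither, where 5.51 % of all genes compared were lower and 8.57 % higher. By class, 7 fibrillar, 1 type IV and 7 other genes were lower, and 2, 0 and 3 were higher. The 7 other genes lower in FGOs were Col6a1, Col6a2, Col9a2, Col12a1, Col15a1, Col17a1 and Col18a1, and the 5 higher were Col13a1, Col28a1, Col24a1, Col19a1 and Col11a2. The member nearest to the limit among those past it was Col17a1, with a log2 difference of -2.20. The median log2 difference over the 37 genes was 0.05, beside -0.01 over all 15253 genes compared, so the middle of the family lay near 0 with members far from it on both sides. With library totals as the scale the collagen median was -0.08 and that over all genes -0.15. On RPKM with a pseudocount of 0.1 only 3 genes remained at least 4-fold lower and 2 higher. That pseudocount exceeds the median collagen level in FGOs, which was 0.0401 RPKM.

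**Figure D4:**
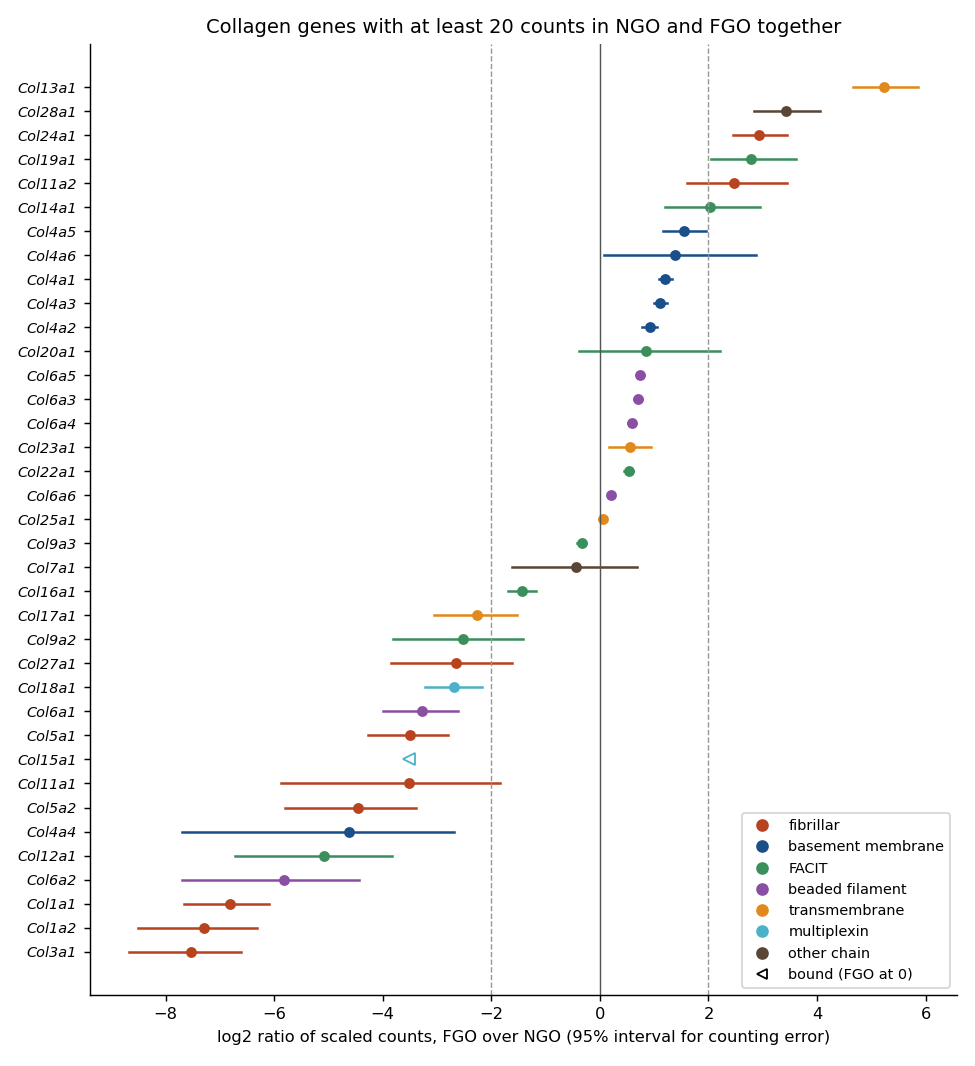
Log2 ratio of scaled counts, FGOs over NGOs, for the 37 collagen genes with at least 20 counts in both libraries together (points coloured by class, lines for the 95 % counting interval, open triangle for a bound where FGOs had 0 counts). Dashed lines mark 4-fold. Col3a1, Col1a2 and Col1a1 stand farthest to the left, more than 100-fold lower in FGOs, and Col13a1 farthest to the right at 37.4-fold.

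From GO1 to GO2 none of the 31 genes with at least 20 counts differed 4-fold, where 0.254 % of all 15734 genes compared were at least 4-fold lower and 1.51 % at least 4-fold higher. The median log2 difference was 0.19 for collagen genes and 0.02 for all genes. At 2-fold, 6 genes were higher in GO2, namely Col4a5, Col13a1, Col7a1, Col14a1, Col4a1 and Col5a1, and 2 were lower, Col1a2 and Col12a1. The share of all genes past 2-fold was not determined. For Col7a1 (interval 0.957 to 17.1) and Col5a1 (interval 0.841 to 15.5), each with 3 counts in GO1, the interval included no difference. Of the 6, Col4a5, Col13a1, Col14a1 and Col4a1 also had their highest value in FGOs. Taking the 37 genes with at least 20 counts over all libraries, 18 were highest in NGOs, 15 in FGOs, 4 in GO1 and 0 in GO2. The shares over all 16664 such genes were 37.4 %, 29.4 %, 19.8 % and 13.4 %, respectively. The 4 genes highest in GO1 were Col25a1, Col4a3, Col6a5 and Col6a6, and whether GO1 differs from NGOs by stage or by protocol cannot be told apart.

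Promoter windows were found for 35 of the 43 genes, 32 of them within 250 bases of the listed start. They follow RefSeq starts, while the paper reports upstream promoters active in oocytes for some reference genes, and which starts are used here was not tested. A TATA box was in 5 of the 35 windows, a CCAAT box in 12 and a GC box in 22, where 13.6 %, 37.4 % and 35.7 % of 32851 mouse promoter windows of the same length held these letters. The GC box was in 7 of the 12 windows of genes lower in FGOs, 11 of the 13 of genes called neither and 1 of the 5 of genes higher in FGOs. The CCAAT box was in 4, 7 and 0 of them, respectively, and the TATA box in 2, 0 and 2. The median number of CpGs was 9.5, 12 and 16, with windows from 0 to 37 CpGs, and no test was run on these numbers.

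Of 33 listed genes that make, secrete and crosslink collagen, 31 were detected in NGOs and 26 in FGOs (28 in GO1 and 33 in GO2), and 9 or 10 were above 1 RPKM in each library. The highest encode enzymes of the endoplasmic reticulum. P4hb, the beta subunit of prolyl hydroxylase, was at 90.7 RPKM in NGOs and 66.6 in FGOs (63.0 in GO1 and 66.4 in GO2). Ppib, a prolyl isomerase, was at 88.2 RPKM in NGOs and 48.8 in FGOs (46.2 in GO1 and 43.2 in GO2). P4ha1, the catalytic subunit of the hydroxylase, was at 10.1 RPKM in NGOs and 14.2 in FGOs (12.2 in GO1 and 13.6 in GO2). The crosslinking enzyme Lox had 9 counts in NGOs, 7 in GO2 and 0 in FGOs and GO1. From NGOs to FGOs 26 of the 33 genes could be compared, and 6 were at least 4-fold lower (5.51 % of all genes compared) and 1 at least 4-fold higher (8.57 % of all). The lower genes were Bmp1 and Adamts2, which trim procollagen, Pcolce, which enhances the trimming, Leprel2, a prolyl hydroxylase, Pxdn, which crosslinks type IV collagen, and Sparc, a collagen-binding protein. All 6 were below 1 RPKM in every library, Sparc being the highest at 0.935 RPKM in NGOs and 0.171 in FGOs. The higher gene was Glt25d2, which adds galactose to collagen, at 0.320 RPKM in NGOs and 2.51 in FGOs (1.16 in GO1 and 1.62 in GO2). From GO1 to GO2, 24 could be compared, with 0 lower (0.254 % of all genes compared) and 1 higher (1.51 % of all). The higher gene was Loxl3, at 0.0132 RPKM in GO1 and 0.0780 in GO2.

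Among 10 collagen receptors, Itgb1, the beta1 integrin, was highest at 18.3 RPKM in NGOs and 18.4 in FGOs (20.6 in GO1 and 21.7 in GO2). The discoidin domain receptors followed, with Ddr1 at 1.95 RPKM in NGOs and 3.31 in FGOs (0.895 in GO1 and 1.37 in GO2) and Ddr2 at 1.36 RPKM in NGOs and 1.73 in FGOs (2.05 in GO1 and 1.98 in GO2). Of 8 receptors compared from NGOs to FGOs, 2 were at least 4-fold lower (Mrc2 and Itga1), where 5.51 % of all genes were, and 1 higher, where 8.57 % were (Itga10, 0.0349 and 0.403 RPKM), all below 1 RPKM. Of the other proteins of the basement membrane, the laminin chain Lamb1 was far above any collagen gene at 76.4 RPKM in NGOs and 122 in FGOs (82.7 in GO1 and 96.0 in GO2). Its relatives Lama2 and Lama5 were at 27.3 and 6.38 RPKM in NGOs and 14.4 and 7.09 in FGOs. Of 14 such genes compared, 4 were at least 4-fold lower in FGOs and 0 higher, beside the same 5.51 % and 8.57 % over all genes. The 4 were Lamb3, Hspg2 (perlecan), Agrn (agrin) and Nid2. Agrn was the only one of them above 1 RPKM, at 3.31 RPKM in NGOs and 0.705 in FGOs (0.813 in GO1 and 0.644 in GO2), 4.53-fold (interval 4.16 to 4.93) higher in NGOs than in FGOs. From GO1 to GO2 none of the 8 receptors and 13 basement membrane genes compared differed 4-fold. Over all genes, 0.254 % were at least 4-fold lower and 1.51 % at least 4-fold higher.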

How the data were processed

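Sequencing reads were trimmed with Trim Galore 0.2.8 and mapped to GRCm38 with TopHat2 2.0.9, as named in the submitters' processing notes. The authors deposited 1 RPKM value per gene and library for 25587 reference genes, on a linear scale. The table is named for read counts, but its values are not whole numbers. The counting program, annotation and strand setting are not given in the sources used here, so antisense and paralogous reads could not be told apart. The table has no column of values beyond the 4 libraries.

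Counts were recovered from RPKM. Library totals were fitted from genes with 1 exon, for which 99.4 % to 99.7 % of values above 0 came out whole, and exon lengths came from GENCODE M21 (27 collagen genes by exon union, 2 by transcript) or were the smallest length that made all counts whole (13 genes). Counts of Col20a1 may be too low, since its fitted length (1398 bases) is far shorter than its exon union (5142). Other fitted lengths were also shorter than the union, among them Col4a4 (6477 against 10612), Col25a1 (9252 against 12947) and Col11a1 (9656 against 12744). So were Col6a6 (7483 against 9166) and Col3a1 (8378 against 9816), and the same could hold for the counts of these genes. Scaling used log ratios averaged after trimming (30 % of ratios and 5 % of expression at each end, prior count 1), and genes with at least 20 counts in a pair were called at 4-fold. Count models were not run, since the counts are recovered ones, and stages could not be tested because each had 1 library. Fold intervals are exact conditional binomial intervals. Scripts used scipy 1.17.1, pandas 2.3.3, numpy 2.4.6 and, for plots, matplotlib 3.10.9 under Python 3.11.15, and the steps were tested on simulated data.

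Classes and lists of genes were written from general knowledge, and the collagen genes and lists were chosen with earlier results of these data known. Genes named are those with at least 1 RPKM in a library, the 2 highest of each class, all chains of types I, III and IV, the 3 highest genes of each other list in NGOs and FGOs, and genes past 4-fold; collagen genes named beyond these were chosen after their values were seen. A gene that this rule names is not reported here. Alternatives were other minimum counts, levels, scalings, fold limits, priors, pseudocounts and members. Promoter windows are from RefSeq. Protein sequences, expression outside the reference genes and DNA methylation were not analysed here.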

Additional observations from a re-analysis of the deposited data

How the results depend on the processing

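Of the 20 collagen genes past 4-fold from NGOs to FGOs, 16 were past it under every scaling, prior count and scale tried except the pseudocount of 0.1 RPKM, and 5 (Col3a1, Col1a2, Col1a1, Col28a1 and Col13a1) under that one too. The other 4 (Col11a1, Col11a2, Col17a1 and Col27a1) also lost the call with a pseudocount of 0.01. No called gene changed direction, but the median over the family, 0.05, was -0.08 with library totals. The count of lower genes, 15, became 3 with the pseudocount of 0.1, which exceeds the median collagen level in FGOs, and 10 with at least 100 counts or with counts divided by 4, a setting chosen after seeing the data. The count of higher genes, 5, became 10 at 2-fold, 2 at 8-fold, 2 with the pseudocount and 6, with Col14a1, at a prior count of 0.25. From GO1 to GO2 it became 6 at 2-fold and 2 with no minimum count, and that of lower genes 2 at 2-fold. The shares of all genes called under these other settings were not determined. Genes above 1 RPKM numbered 14 in NGOs at 0.5 RPKM, 5 in GO1 and 5 in GO2 at 2 RPKM, and 18 in NGOs and 13 in GO1 on a TPM scale. That scale raises every level of a library by the same factor, for example Col3a1 in NGOs from 1.73 RPKM to 9.21 TPM and Col6a6 from 17.7 to 94.0. With counts divided by 4, 24 genes were detected in GO1 and 27 in FGOs. The shares of class sums moved as follows. In counts without gene length, fibrillar chains held 12.0 % in NGOs, type IV chains 5.99 % in GO1 and 6.84 % in GO2, and other chains 82.4 % in NGOs, 93.6 % in GO1 and 92.7 % in GO2. Without the highest member of each class, fibrillar chains held 0.736 % in GO1, 0.749 % in GO2 and 1.43 % in FGOs, type IV chains 7.05 % in NGOs and 12.4 % in FGOs, with 3.08 % in GO1 and 5.77 % in GO2, and other chains 82.3 % in NGOs and 86.2 % in FGOs, with 96.2 % in GO1 and 93.5 % in GO2. No paired analysis was possible because each stage had 1 library. With 1 library per stage, the error between animals or preparations is unknown, and genes under about 20 counts could not be compared.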

Other observations

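Proteins that carry a collagen repeat without being named as collagens were examined as a list of 31 genes, chosen after values were seen. Their summed level was 59.8 RPKM in NGOs and 114 in FGOs, with 120.4 in GO1 and 150.1 in GO2, above that of all collagen genes in every library. Mbl2, a mannose-binding lectin of the complement system, held most of it, at 42.7 RPKM in NGOs and 79.5 in FGOs (103 in GO1 and 125 in GO2). Emilin2, a glycoprotein of elastic fibres, lay at 7.84 RPKM in NGOs and 21.2 in FGOs (11.6 in GO1 and 17.6 in GO2). C1qb, a chain of complement C1q, lay at 2.64 RPKM in NGOs and 7.11 in FGOs (1.26 in GO1 and 2.89 in GO2). However, C1qa had at most 5 counts in a library and C1qc was at 0 in all libraries. Marco, a scavenger receptor of macrophages, was lower in FGOs than in NGOs, at 2.95 RPKM in NGOs and 1.24 in FGOs (1.61 in GO1 and 1.35 in GO2). Of 17 such genes compared from NGOs to FGOs, 0 were at least 4-fold lower, where 5.51 % of all genes compared were. At least 4-fold higher were 3 (Msr1, Cthrc1 and Ccbe1, each below 0.2 RPKM in every library), where 8.57 % of all were.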
